A study of Homo sapiens with 6 samples.

Results

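Small heat shock proteins bind unfolding proteins without using ATP and hold them in a soluble state. Most BAG proteins carry a BAG domain that binds the ATPase domain of HSP70 and helps it to exchange nucleotide. They join HSP70 to different tasks through the rest of their sequences. The genes described here are 4 genes named among the small heat shock proteins (*HSPB1*, *CRYAB*, *HSPB8* and *HSPB11*) and the 6 BAG genes (*BAG1* to *BAG6*). They were chosen by symbol, 10 of the 58825 genes in the deposited table, and all 10 passed the count filter that kept 18229 genes for testing. They were measured in MDA-MB-231, a human breast cancer cell line that lacks the hormone receptors and HER2 amplification, as poly(A) RNA from 3 repeats in vehicle (DMSO) and 3 in disulfiram with copper (DSF/Cu, 0.2 µM), both harvested after 24 h. Disulfiram is a drug against alcohol dependence whose metabolite binds copper. No group had disulfiram or copper alone. Each repeat pooled the cells of 3 wells, and nothing in the labels places the repeats in cultures of their own. The p-values therefore rest on the spread among these 6 samples, and that spread may be only technical.

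After DSF/Cu, 3 of the 4 small heat shock protein genes and 1 of the 6 BAG genes rose, 1 BAG gene fell, and 5 genes were not called. *HSPB8* rose 4.69-fold, *BAG3* 3.03-fold and *HSPB1* 2.50-fold, and *CRYAB* went from no counts to a mean of 56.5 CPM (library-scaled counts, by the TMM method of edgeR). *BAG2* was 1.3-fold lower. A call is a Benjamini-Hochberg adjusted p under 0.05 over all tested genes in edgeR's two-sided quasi-likelihood test. By that rule 35.2% of all tested genes were called, 18.5% higher and 16.8% lower, so the 4 rises of 10 stand beside a background of nearly 1 gene in 5 and the 1 fall of 10 is no more than the background. At least 2-fold rises were called for 7.42% of all tested genes and for 4 of these 10. The median log2 change was 0.10 over the 10 genes and 0.05 over the 6 BAG genes, against 0.002 over all tested genes. The genes were chosen with earlier results of these data known, so these counts describe them and test nothing about them as a set.

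**Figure D1:**
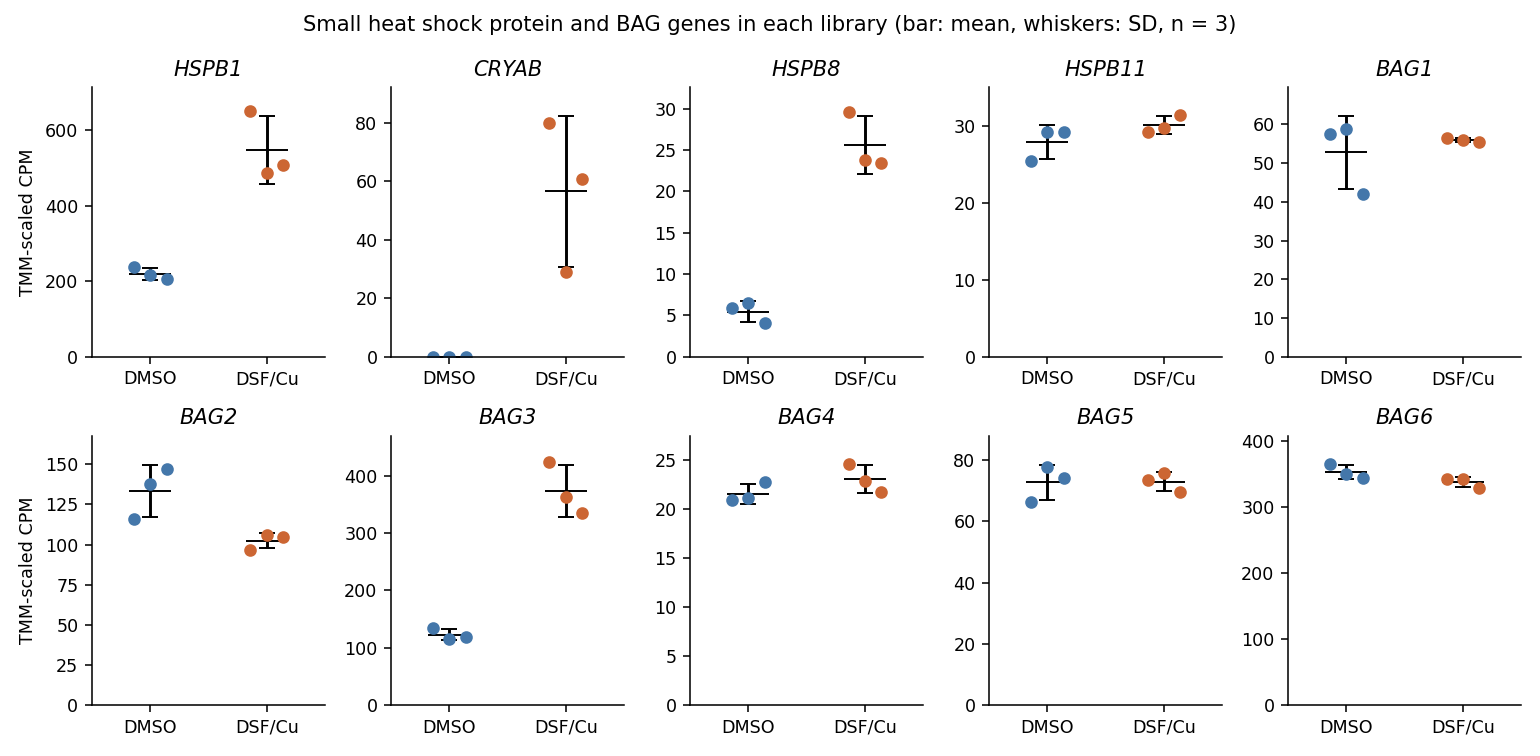
TMM-scaled CPM (y axis, from 0, with its own range in each panel) of the 10 genes in 3 DMSO and 3 DSF/Cu libraries, 1 point per library, with the mean (bar) and SD (whiskers). The DSF/Cu points lie above all DMSO points for HSPB1, CRYAB, HSPB8 and BAG3, below them for BAG2 and BAG6, and overlap them for the other 4 genes.

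The sequences before the starts of 3 genes that rose and of the 1 that fell are shown because heat shock factors bind arrays of the unit GAA and its reverse complement TTC. RefSeq windows of GRCh38.p14 were used for 7 of the 10 genes (*HSPB1*, *HSPB8*, *BAG1*, *BAG2*, *BAG3*, *BAG5* and *BAG6*, 9 windows in all). In these, the 250 bases before each start were searched. The rest of the 10 genes were not searched, so nothing is said about matches before their starts. The motifs were the inverted pairs GAANNTTC and TTCNNGAA, each the same on both strands, and the array of 3 alternating units, on both strands, which contains both pairs. Capitals mark a match to a pair. Sequences run 5′ to 3′ on the strand of the gene. Starts are those of RefSeq, and the *HSPB8* window lies inside the gene as deposited.
HSPB1, chr7:76302423-76302672, plus strand: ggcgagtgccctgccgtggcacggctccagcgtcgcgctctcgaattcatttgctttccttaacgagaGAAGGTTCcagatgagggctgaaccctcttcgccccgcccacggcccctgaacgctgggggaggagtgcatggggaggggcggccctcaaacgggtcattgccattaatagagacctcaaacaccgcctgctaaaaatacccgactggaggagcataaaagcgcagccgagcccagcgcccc
HSPB8, chr12:119178681-119178930, plus strand: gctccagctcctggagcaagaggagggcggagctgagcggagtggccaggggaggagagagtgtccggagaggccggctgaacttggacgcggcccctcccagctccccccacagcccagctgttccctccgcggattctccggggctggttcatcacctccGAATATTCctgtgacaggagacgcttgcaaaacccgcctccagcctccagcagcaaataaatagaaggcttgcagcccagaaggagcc
BAG3, chr10:119651130-119651379, plus strand: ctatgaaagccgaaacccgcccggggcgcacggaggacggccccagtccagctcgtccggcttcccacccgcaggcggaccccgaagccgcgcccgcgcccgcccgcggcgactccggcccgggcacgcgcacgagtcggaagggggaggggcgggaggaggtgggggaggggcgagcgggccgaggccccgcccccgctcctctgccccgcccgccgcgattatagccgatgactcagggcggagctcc
BAG2, chr6:57172076-57172325, plus strand: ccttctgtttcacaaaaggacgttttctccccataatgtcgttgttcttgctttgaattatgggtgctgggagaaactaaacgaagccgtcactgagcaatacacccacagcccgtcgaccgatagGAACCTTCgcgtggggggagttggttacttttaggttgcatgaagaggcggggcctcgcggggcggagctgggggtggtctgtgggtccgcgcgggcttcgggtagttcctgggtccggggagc

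The pair GAANNTTC occurred once in each of 3 of these windows: from 182 to 175 bases before the start of *HSPB1*, from 88 to 81 bases before that of *HSPB8* and from 124 to 117 bases before that of *BAG2*. It thus stood before the RefSeq starts of 2 genes that rose and of the 1 that fell. The *HSPB8* match lies inside the gene as deposited. Of all 35116 windows of that length, 5.78% held the pair. The *BAG3* window, with 78% G and C, held neither pair, nor did those of *BAG1*, *BAG5* and *BAG6*. The pair TTCNNGAA (6.62% of all windows) and the array of 3 units (0.441%) had no match in the 9 windows. A match describes letters and not a bound site, and more distant sequence was not searched.

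*HSPB1* (ENSG00000106211, chr7:76302673-76304292, plus strand) encodes HSP27, an oligomeric chaperone that stress kinases phosphorylate. Its libraries held 236, 215 and 205 CPM in DMSO and 649.8, 486 and 507 CPM after DSF/Cu. All 3 DSF/Cu libraries were above all DMSO libraries, with DSF/Cu replicate 1 the highest. The log2 change was 1.32 ± 0.12 (SE, n = 3 per group; 95% interval 1.03 to 1.62, edgeR adjusted p = 0.000515). Its 2 pseudogenes in the table had few counts: *HSPB1P1* had 68, 30 and 21 in DMSO and 89, 49 and 60 after DSF/Cu, and *HSPB1P2* had 27 at most. *HSPB1* itself had 13532 to 36659 counts, and how reads that match several copies were counted was not tested.

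*HSPB8* (ENSG00000152137, chr12:119178642-119221131, plus strand) encodes HSP22, the small heat shock protein that binds BAG3 in a complex that sends clients to autophagy. Its libraries held 5.93, 6.44 and 4.03 CPM in DMSO and 29.7, 23.8 and 23.5 CPM after DSF/Cu. The groups lay far apart, and the lowest treated library was over the highest DMSO library by more than the range within either group. The log2 change was 2.23 ± 0.21 (95% interval 1.74 to 2.72, edgeR adjusted p = 0.000516). *HSPB8* was thus a low gene in DMSO, with 266 to 452 counts, and had 1242 to 1673 after DSF/Cu.

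*CRYAB* (ENSG00000109846, chr11:111908619-111913897, minus strand) encodes αB-crystallin, a small heat shock protein of lens and muscle that other cells make under stress. It had 0 counts in each DMSO library and 4509, 1668 and 3214 counts after DSF/Cu, which is 79.9, 28.9 and 60.8 CPM. The treated libraries thus differed from each other by a larger ratio than for any other of the 10 genes, with replicate 2 the lowest. Zero counts in the DMSO group allow a level of up to 0.0143 CPM (3 counts over the group), so the rise was at least 3945-fold (edgeR adjusted p = 0.000752), and at least 2016-fold from the lowest treated library alone. Such limits cover counting error only.

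The *CRYAB* locus overlaps other genes on the opposite strand, and the sources used here do not say whether counting used strand. *HSPB2*, another small heat shock protein gene, starts 1163 bases from the start of *CRYAB* and had 0 counts in all 6 libraries. The read-through gene *HSPB2-C11orf52*, which also overlaps *CRYAB*, had 15, 8 and 8 counts in DMSO and 0 in each DSF/Cu library. The pattern of 0 counts in every DMSO library and at least 1000 in every DSF/Cu library occurred in 3 of the 58825 genes, and in the reverse direction in 0 genes. The other two were *RPL17-C18orf32*, a read-through gene, and the clone-named gene *AP001189*, both named here after their values were seen. In 6 genes 1 library was at 0 while the other two of its group held at least 500 counts. How reads were divided between overlapping genes was not tested.

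*HSPB11* (ENSG00000081870, chr1:53916574-53945929, minus strand) carries a small heat shock protein symbol but is also known as IFT25, a subunit of the intraflagellar transport complex that carries cargo in cilia. Its libraries held 25.4, 29.2 and 29.2 CPM in DMSO and 29.2, 29.7 and 31.5 CPM after DSF/Cu. The groups overlapped, and the log2 change of 0.11 ± 0.09 was not called (95% interval -0.10 to 0.31, edgeR adjusted p = 0.383). The interval leaves out a rise of the size seen in *HSPB1* or *HSPB8*. Its neighbour *LRRC42*, which starts 156 bases away on the opposite strand, was not called either (log2 change -0.01 ± 0.08, edgeR adjusted p = 0.951).

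*BAG3* (ENSG00000151929, chr10:119651370-119677819, plus strand) encodes the BAG protein that joins HSP70 to small heat shock proteins and to selective autophagy. Its libraries held 134, 116 and 119 CPM in DMSO and 423, 362 and 335 CPM after DSF/Cu. The groups did not overlap, and the lowest treated library was above the highest DMSO library by more than the whole range of either group. The log2 change was 1.60 ± 0.10 (95% interval 1.35 to 1.85, edgeR adjusted p = 0.000153).

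*BAG2* (ENSG00000112208, chr6:57172326-57189833, plus strand) encodes a BAG protein that inhibits the ubiquitin ligase CHIP when bound to it with HSP70. Its libraries held 116, 138 and 147 CPM in DMSO and 96.8, 106 and 105 CPM after DSF/Cu. All treated libraries were below all DMSO libraries, though DMSO replicate 1 lay closer to the treated libraries than to the other DMSO libraries. The log2 change was -0.38 ± 0.10 (95% interval -0.61 to -0.15, edgeR adjusted p = 0.0233). The call rested on having all libraries: it was lost without DMSO replicate 2 (edgeR adjusted p = 0.0704), DMSO replicate 3 (0.0639), DSF/Cu replicate 1 (0.0753), DSF/Cu replicate 2 (0.0548) or DSF/Cu replicate 3 (0.0573), and it remained without DMSO replicate 1 (0.00697).

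*BAG6* (ENSG00000204463, chr6:31639028-31652705, minus strand) encodes a large protein of the nucleus and cytosol that shields hydrophobic segments and hands tail-anchored proteins to their insertion route. Its libraries held 365, 349.9 and 343 CPM in DMSO and 341, 342 and 328 CPM after DSF/Cu. The treated libraries were all below the DMSO libraries, but by so little that the log2 change of -0.06 ± 0.05 was not called (95% interval -0.17 to 0.05, edgeR adjusted p = 0.328). Groups that do not overlap were found for 51.2% of all tested genes and for 6 of these 10. The result for *BAG6* depended on scaling. With library totals in place of TMM its log2 change was -0.25 (edgeR adjusted p = 0.00649) and it was called lower. The same scaling moved the median of all tested genes to -0.18, and only 32.7% of all calls were then rises, against 52.4% with TMM.

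*BAG1*, *BAG4* and *BAG5* did not move by more than the spread between libraries. *BAG1* (ENSG00000107262, chr9:33247820-33264720, minus strand), the founding member, named for its binding to BCL2, held 57.4, 58.8 and 42.0 CPM in DMSO and 56.6, 55.9 and 55.6 CPM after DSF/Cu. DMSO replicate 3 was low, and the other two DMSO libraries were slightly above the treated ones. The log2 change was 0.09 ± 0.13 (95% interval -0.23 to 0.40, edgeR adjusted p = 0.656) and turned to -0.06 without DMSO replicate 3. *BAG4* (ENSG00000156735, chr8:38176533-38210888, plus strand), which encodes SODD, a silencer of TNF receptor death domains, held 20.9, 21.1 and 22.8 CPM in DMSO and 24.6, 22.9 and 21.8 CPM after DSF/Cu. Its groups overlapped (log2 change 0.10 ± 0.09, 95% interval -0.11 to 0.30, edgeR adjusted p = 0.436). *BAG5* (ENSG00000166170, chr14:103556544-103562831, minus strand), whose protein holds several BAG domains, held 66.4, 77.5 and 74.1 CPM in DMSO and 73.2, 75.8 and 69.6 CPM after DSF/Cu. Its log2 change of 0.004 ± 0.08 (95% interval -0.18 to 0.19, edgeR adjusted p = 0.974) was the closest to 0 of the 10 genes. For these 3 genes the intervals reach no further than 0.40, which leaves out a change of the size seen in *BAG3*.

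**Figure D2:**
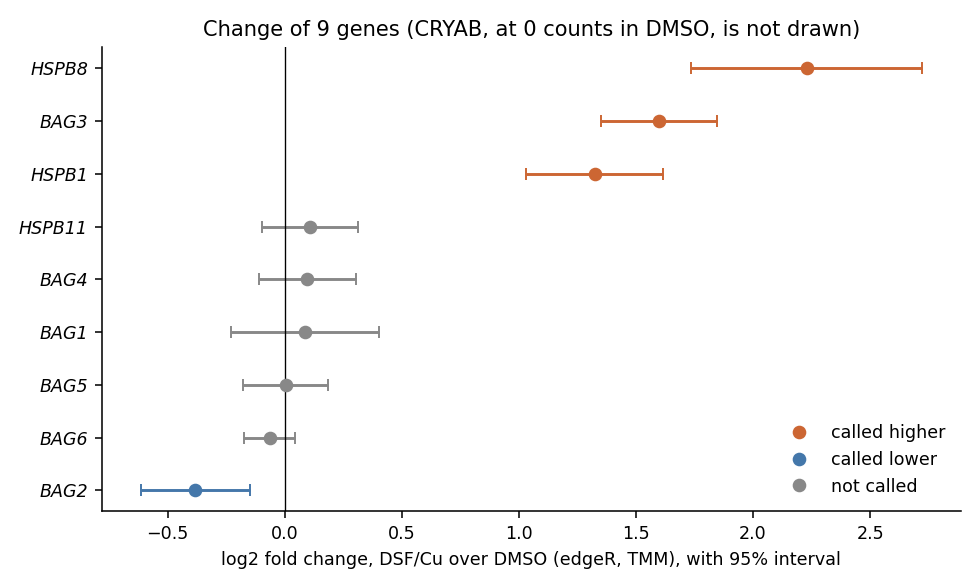
Log2 fold change of DSF/Cu over DMSO (x axis) with its 95% interval (whiskers) for 9 of the 10 genes (rows), from edgeR with TMM scaling; CRYAB, with only a lower bound, is left out. HSPB8, BAG3 and HSPB1 lie between 1.32 and 2.23, BAG2 lies at -0.38, and the intervals of the other 5 genes hold 0.

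Neighbours of the BAG genes that were not called were read beside them, because opposite-strand neighbours can share reads or a promoter region. *APOM*, which overlaps *BAG6*, had at most 31 counts in a library and was not called (edgeR adjusted p = 0.578). *CHMP5*, an ESCRT-III subunit gene that starts 159 bases from *BAG1* on the opposite strand, rose by 0.91 ± 0.05 (log2, SE, edgeR adjusted p = 0.000121) while *BAG1* was not called. *APOPT1*, which starts 131 bases from *BAG5*, rose by 0.56 ± 0.09 (edgeR adjusted p = 0.00429), and *KLC1*, which overlaps *BAG5*, was not called (log2 change -0.14 ± 0.06, edgeR adjusted p = 0.133). *LSM1*, which overlaps the start of *BAG4*, rose by 0.21 ± 0.07 (edgeR adjusted p = 0.0454). That rise was near the threshold and small: library totals moved the median of all tested genes by a similar amount, to -0.18. The difference in response between a BAG gene and its neighbour was not itself tested.

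Levels can be compared between genes per length, on the scale of the deposited FPKM values. These values are not TMM-scaled, so the order of the genes is read within each group. With limma on log2(FPKM + 0.1), the median log2 change of all tested genes was -0.16. In DMSO *HSPB1* was the highest of the 10 at 131 ± 10.4 FPKM (SD, n = 3), followed by *BAG6* at 59.9 ± 2.17, *BAG3* at 40.5 ± 3.43, *BAG2* at 18.1 ± 2.10 and *BAG5* at 12.4 ± 0.89 FPKM. *HSPB11* (7.78 ± 0.558 FPKM) and *BAG1* (6.72 ± 1.20 FPKM) overlapped in range. Below them came *BAG4* at 4.05 ± 0.188 and *HSPB8* at 1.72 ± 0.402 FPKM, with *CRYAB* listed at 0 counts. After DSF/Cu *HSPB1* stood at 291 ± 42.1 FPKM and *BAG3*, at 109 ± 11.1 FPKM, was above *BAG6*, at 50.8 ± 0.838 FPKM, in every library. The next 5 genes formed a run in which neighbours in the order overlapped: *BAG2* (12.3 ± 0.80), *BAG5* (11.1 ± 0.448), *CRYAB* (10.4 ± 4.63), *HSPB11* (7.45 ± 0.413) and *HSPB8* (7.16 ± 0.839 FPKM). *BAG1* and *BAG4* were last, at 6.33 ± 0.0563 and 3.84 ± 0.171 FPKM.

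The rise of *BAG3* changed the makeup of BAG transcripts. *BAG3* made up 30.5%, 27.1% and 28.0% of the summed FPKM of the 6 BAG genes in the DMSO libraries and 59.3%, 55.2% and 54.2% in the DSF/Cu libraries. *BAG6* went the other way, from 42.3 ± 0.594% to 26.4 ± 1.45% (SD, n = 3), and *BAG2* from 12.8 ± 1.75% to 6.42 ± 0.731%. The ratio of *BAG3* to *BAG6* FPKM was 0.712, 0.643 and 0.671 in DMSO and 2.40, 2.05 and 1.97 after DSF/Cu, so the order of these 2 genes turned over in all libraries. Such ratios within a library do not depend on its scaling. Summed FPKM of the 6 BAG genes was 145, 139.99 and 139.6 in DMSO and 204, 192 and 183 after DSF/Cu. These sums are not TMM-scaled.

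Among the 4 genes with small heat shock protein names the makeup moved little, since *HSPB1* held 93.2 ± 0.74% of their summed FPKM in DMSO and 92.1 ± 0.863% after DSF/Cu. *CRYAB* reached 3.93%, 1.92% and 3.80% in the 3 treated libraries. *HSPB8* went from 1.22 ± 0.253% to 2.28 ± 0.103%, and *HSPB11* from 5.57 ± 0.766% to 2.40 ± 0.415%. The ratio of *BAG3* to its partner *HSPB8* fell from between 18.8 and 31.0 in DMSO to between 14.9 and 15.9 after DSF/Cu, with no overlap between the groups.

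**Figure D3:**
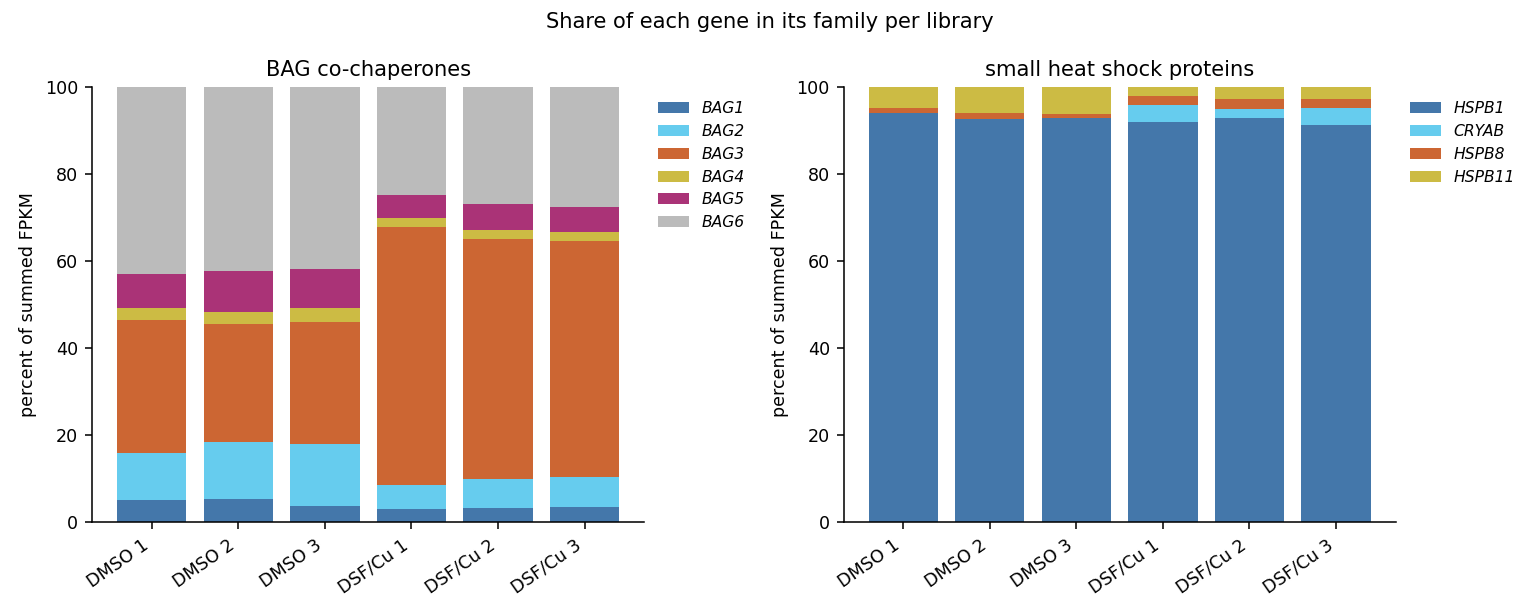
Share of each gene in the summed FPKM of its family (y axis, percent) in each of the 6 libraries (x axis), for the 6 BAG genes (left) and the 4 small heat shock protein genes (right). BAG3 takes 27.1% to 30.5% of BAG FPKM in the DMSO libraries and 54.2% to 59.3% in the DSF/Cu libraries, while HSPB1 holds over 90% of the right panel throughout.

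The other 7 members of the small heat shock protein family were nearly silent in both groups. *HSPB9* was the one that passed the count filter, with 4, 0 and 12 counts in DMSO and 109, 46 and 24 after DSF/Cu, and was called higher (log2 3.74 ± 1.10, edgeR adjusted p = 0.0388). That call was lost without DMSO replicate 1 (edgeR adjusted p = 0.118), DMSO replicate 2 (0.0552), DSF/Cu replicate 1 (0.137) or DSF/Cu replicate 2 (0.0725). It was also lost with no count filter (0.0577), with the replicate number as a block (0.0934), and in limma on log2(FPKM + 1) with and without a filter (adjusted p = 0.061 and 0.378). *HSPB6* had at most 23 counts in a library, *HSPB7* had 8 in 1 DSF/Cu library and 0 elsewhere, *HSPB3* had at most 4, and *HSPB2*, *CRYAA* and *ODF1* had none.

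HSP70 proteins are the usual partners of BAG domains, and 5 of 7 cytosolic HSP70 genes rose while none fell (median log2 change 2.91), against 18.5% and 16.8% of all tested genes. *HSPA8*, the constitutive HSP70, went from 2418 ± 68.1 to 5018 ± 334 CPM, a log2 change of 1.05 ± 0.06 (edgeR adjusted p = 8.55e-05). The inducible *HSPA1B* and *HSPA6* rose by 6.31 ± 0.12 and 11.79 ± 0.31 (edgeR adjusted p = 3.81e-06 and 8.86e-06), and the testis-linked *HSPA1L* by 2.91 ± 0.28 (edgeR adjusted p = 0.000562). The list median is the value of *HSPA1L* itself, which had 68, 38 and 32 counts in DMSO and 285, 251 and 277 after DSF/Cu. Whether reads of other HSP70 genes were counted for *HSPA1L* was not tested. *HSPA1A* and *HSPA1B* are near-identical, so the split of counts between them is uncertain. *HSPA1A* had 5450, 127 and 5626 counts in DMSO, where replicate 2 stood far below the others, and 663729, 533604 and 465877 after DSF/Cu. It was called higher (log2 7.55 ± 1.34, edgeR adjusted p = 0.00605). That call was lost in limma on log2(FPKM + 1) without a filter (adjusted p = 0.052), which left 4 rises on the list. The median of 2.91 is beside a median of 0.002 for all tested genes and 2.72 for this list with library totals, and it is 0.996 with limma on log2(FPKM + 1), a scale that understates changes of low genes.

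Other exchange factors of HSP70 proteins gave 3 rises and 1 fall of 8 (median 0.24), beside 18.5% and 16.8% of all tested genes. The counts were the same with library totals. *HSPH1*, the HSP110 gene, rose by 2.17 ± 0.06 (edgeR adjusted p = 8.52e-06), *HSPA4* by 0.37 ± 0.04 (edgeR adjusted p = 0.000964) and *HSPA4L* by 0.38 ± 0.05 (edgeR adjusted p = 0.00207). *SIL1*, an exchange factor of the ER HSP70, fell by 0.58 ± 0.06 (edgeR adjusted p = 0.001).

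In chaperone-assisted selective autophagy, BAG3 and HSPB8 hold a client with HSP70, the ligase CHIP tags it, and a receptor brings it to the autophagosome. The list used for it is wider than these steps and also holds *PPP1R15A*, *EIF2AK1*, *LATS1*, *LATS2* and *TSC1*. Over all tested genes 18.5% rose and 16.8% fell. Of the 19 genes on that list 12 rose, among them *PPP1R15A*, *LATS1*, *LATS2* and *TSC1*, and 2 fell (median 0.66). The counts were 9 and 3 with library totals (median 0.48) and 5 and 2 with limma without a filter, which called 6.77% of all genes. The receptor gene *SQSTM1* went from 756 ± 21.5 to 1977 ± 68.2 CPM (log2 1.39 ± 0.04, edgeR adjusted p = 1.59e-05). *STUB1*, which encodes CHIP, fell by 0.95 ± 0.07 (edgeR adjusted p = 0.000271), from 37.3 ± 1.60 to 19.3 ± 0.616 CPM, the largest fall on the list. *PPP1R15A*, the stress-induced phosphatase subunit, rose by 2.70 ± 0.10, *TSC1* by 1.13 ± 0.07 and *LATS2* by 0.89 ± 0.08 (edgeR adjusted p = 2.36e-05, 0.000161 and 0.000371).

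Genes of the BAG6 complex and of tail-anchored protein targeting moved in both directions: 5 of 13 rose and 2 fell (median 0.08), which turned to 2 and 4 with library totals (median -0.10). With 18.5% of all tested genes called higher and 16.8% lower, the falls were near the background. Rises numbered 3 with no count filter, 2 with the replicate number as a block, 2 with limma on filtered FPKM and 1 with limma without a filter. *UBL4A*, a subunit of the BAG6 complex, fell by 0.51 ± 0.07 (edgeR adjusted p = 0.00197), while *GET4*, the other subunit, stayed uncalled at 0.25 ± 0.12 (edgeR adjusted p = 0.148) except without DSF/Cu replicate 3 (0.0281). The targeting ATPase gene *ASNA1* rose by 0.40 ± 0.06 and the ubiquilin gene *UBQLN1* by 0.70 ± 0.06 (edgeR adjusted p = 0.004 and 0.000298), *USP13* fell by 0.58 ± 0.07 (edgeR adjusted p = 0.00106), and *SGTA* was at 0.06 ± 0.06 (edgeR adjusted p = 0.52), or at -0.13 with library totals. The count of rises was 3 without DMSO replicate 1 or 3 and 2 without DMSO replicate 2 or DSF/Cu replicate 2.

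Of the 16 other intraflagellar transport B subunits, partners of HSPB11 in cilia, 8 fell and 1 rose (median -0.33), against 10 and 0 with library totals (median -0.52). Over all tested genes 16.8% fell and 18.5% rose. *IFT74* fell by 0.50 ± 0.11, *IFT81* by 0.58 ± 0.13 and *IFT88* by 0.57 ± 0.13 (edgeR adjusted p = 0.0135, 0.014 and 0.0144; *IFT88* 0.0511 without DMSO replicate 2), while *IFT20* rose by 0.62 ± 0.14 (edgeR adjusted p = 0.0158, but 0.0588 with library totals and 0.0524 to 0.0567 without DMSO replicate 1 or 2 or DSF/Cu replicate 2 or 3). *IFT27*, whose protein pairs with that of *HSPB11*, was not called (log2 change -0.28 ± 0.22, edgeR adjusted p = 0.382). The falls numbered 5, 2 and 4 without DMSO replicate 1, 2 or 3, and 4, 5 and 6 without DSF/Cu replicate 1, 2 or 3, as well as 5 with the replicate number as a block and 3 with limma without a filter. Whether *HSPB11* differs from the other subunits was not tested.

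Among 5 tested heat shock factors and regulators of 6 listed, 2 rose and 1 fell (1 and 1 with library totals), and with 18.5% of all tested genes higher and 16.8% lower the 1 fall is near the background. *HSF1*, the main factor of the heat shock response, averaged 71.8 ± 8.28 CPM with vehicle and 69.0 ± 7.92 with DSF/Cu and was not called (log2 -0.06 ± 0.12, edgeR adjusted p = 0.75). *HSF2* rose by 0.67 ± 0.09 (edgeR adjusted p = 0.00216). *HSBP1*, a binder of HSF1, rose by 0.40 ± 0.09 (edgeR adjusted p = 0.0177, but 0.102 with library totals and 0.0534 to 0.0601 without DMSO replicate 1 or 2 or DSF/Cu replicate 1). *HSF4* fell by 0.69 ± 0.21 (edgeR adjusted p = 0.041), a call lost without any library other than DSF/Cu replicate 1 (0.0784 to 0.108), with no count filter (0.0652) and with the replicate number as a block (0.0805).

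The kinases that act on HSPB1 gave 2 rises and 3 falls among 9 tested of 10 (2 and 5 with library totals; 1 fall without DMSO replicate 1 or DSF/Cu replicate 1; 1 rise with limma without a filter). Over all tested genes 18.5% rose and 16.8% fell. *MAPKAPK2*, the main one, rose by 0.41 ± 0.05, and *MAPKAPK3* fell by 0.44 ± 0.08 (edgeR adjusted p = 0.00137 and 0.00538). Of 7 tested partners of single BAG proteins, 8 in all, 1 rose and 1 fell (0 and 1 with library totals, 0 and 0 with the replicate number as a block), no more than the background: *SIAH1* by 0.34 ± 0.09 (edgeR adjusted p = 0.0217, but 0.207 with library totals and 0.0542 to 0.0718 without DMSO replicate 1 or 3 or DSF/Cu replicate 2 or 3) and *BCL2* by 0.40 ± 0.10 (edgeR adjusted p = 0.018). The *BCL2* call was lost without DMSO replicate 2 or 3 or DSF/Cu replicate 2 or 3 (edgeR adjusted p from 0.051 to 0.057), and with the replicate number as a block (0.0566), which also ended that of *SIAH1* (0.0506).

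**Figure D4:**
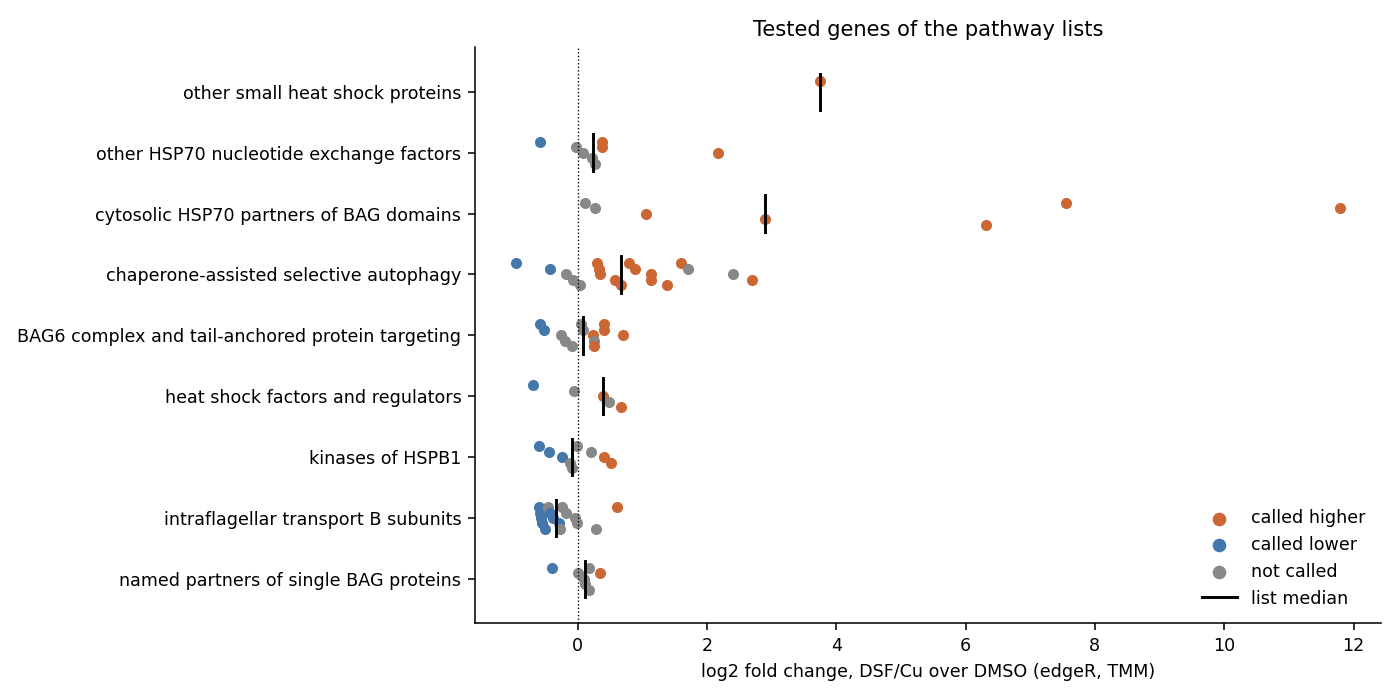
Log2 fold change of DSF/Cu over DMSO (x axis) for each tested gene (points) of 9 pathway lists (rows), with the list median as a black line. HSP70 genes lie to the right with a median of 2.91, and intraflagellar transport genes lie to the left with a median of -0.33.

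Over all 6 libraries, the genes whose pattern was most like that of a member were found by the distance between their log2 CPM values, each taken relative to its own DMSO mean, among 6969 genes with a mean of at least 5 FPKM in the higher group. Nearest to *BAG3* were *DUSP10*, *HOXD1* and *FTL*, with distances of 0.14, 0.16 and 0.16 and log2 changes of 1.61, 1.65 and 1.58. Nearest to *HSPB1* were *CLCF1*, *MEF2D* and *ABTB2* (0.26 to 0.27), and nearest to *HSPB8* were *HES1*, *SMAD7* and *TNFSF9* (0.30 to 0.50). No such distance is given for *CRYAB*, since with 0 counts in DMSO it rests on the value added before taking logs. The compared values share their libraries and the split into 2 groups.

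Total counts per library were 62165212 to 70883177 in DMSO and 55563223 to 61633168 in DSF/Cu. VIM, CD44, AXL and CAV1, markers of this mesenchymal-like line, lay at 24.4 FPKM or more in every library, and the fifth marker, SPARC, at 0.168 FPKM or less. The receptor genes ESR1 and PGR were below 0.07 FPKM and ERBB2 was at 2.72 to 6.57 FPKM. Among markers of other cells, CD3E, ADIPOQ and DCN had no counts, PTPRC reached 0.017 FPKM, and CD68 lay at 39.0 to 76.4 FPKM. The summed level of the 5 line markers was 823 to 887 FPKM in DMSO and 557 to 619 FPKM after DSF/Cu, and that of the 4 luminal markers 23.0 to 27.6 and 12.1 to 12.8 FPKM; their part in the changes above was not tested. In bulk RNA a rise in every cell and a rise in some cells cannot be told apart.

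**Figure D5:**
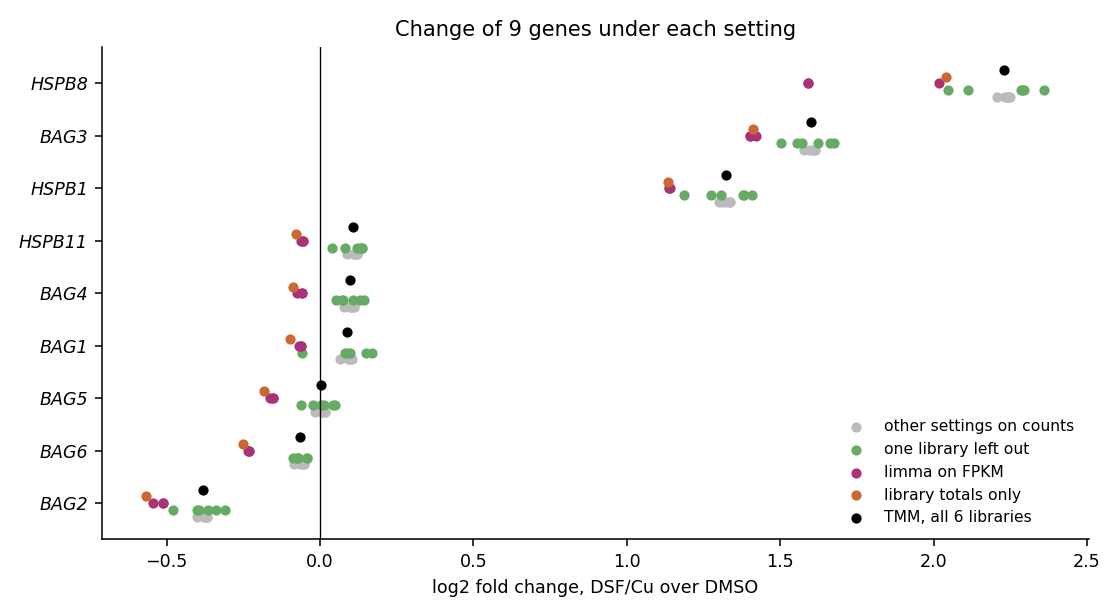
Log2 fold change of DSF/Cu over DMSO (x axis) of 9 genes (rows) under each setting (coloured points): TMM with all libraries, library totals, limma on FPKM, 1 library left out, and other settings on counts. HSPB8, BAG3 and HSPB1 stay above 1.1 in all of them, BAG2 stays below -0.3, and BAG1, BAG4, BAG5 and HSPB11 change sign with the scaling.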

How the data were processed

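The authors deposited 1 table with whole-number counts per gene, unscaled, and FPKM values, scaled to gene length and depth, per the file headers. FPKM is at most 0.0001 for a count of 0. Columns headed Control were taken as DMSO. Per the submitters' processing notes, Bowtie 0.12.2, HISAT2 2.0 and StringTie 1.3.0 were used, with no role given; the notes list build mm8, but 58552 of 58825 gene IDs occur in GENCODE 29 (GRCh38), and 7 of the 10 members have the same start and end there. The counter is not given in the sources used here, nor is the strand setting.

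Counts were filtered by filterByExpr, scaled by TMM and tested with edgeR 4.0.16 (R 4.3.3); each SE was taken from the log2 fold change and the root of its F statistic. CPM values are counts over TMM-scaled library sizes. Alternatives in edgeR changed the scaling, the count filter, the replicate block or the libraries, 1 at a time. DESeq2 1.42.0 used its own scaling, and limma 3.58.1 was run on log2 FPKM, which changes the input, scaling and filter together. The edgeR fit was tested on simulated counts in which few genes changed, in random directions. That does not test the scaling where many genes change, as here. Within each group no library was a copy of another (chi-square per degree of freedom at least 50.2). Where 2 IDs shared a symbol in a list, the one with more counts was used.

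Members and lists were chosen with earlier results of these data known. All members are named; list genes named are among the up to 5 called with the smallest adjusted p and a short set of fixed names, and neighbours, pseudogenes and the 3 most like genes are named by position, symbol or distance.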

Additional observations from a re-analysis of the deposited data

How the results depend on the processing

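The 4 rises (*HSPB1*, *CRYAB*, *HSPB8* and *BAG3*) kept their direction and call in all 15 alternatives, with log2 changes of 1.14 to 1.41 for *HSPB1*, 1.59 to 2.36 for *HSPB8* and 1.40 to 1.68 for *BAG3*. The fitted change of *CRYAB* ran from 3.42 to 15.13, since it depends on the value added to its 0 counts, and is no bound. The number of members called lower was 2 with library totals and with limma at a mean FPKM of at least 0.1 (pseudocount 1 or 0.1), and 0 to 1 when each library was left out. *BAG2* was not called by limma without a filter (-0.51, adjusted p = 0.0857) and ran from -0.48 to -0.31 over the libraries left out.

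Scaling by library totals and limma on FPKM (pseudocounts 1 and 0.1 with a filter, then 1 without) put small changes on the other side of 0: *HSPB11* at -0.077, -0.055, -0.061 and -0.055, *BAG1* at -0.099, -0.062, -0.068 and -0.062, *BAG4* at -0.089, -0.060, -0.074 and -0.060, and *BAG5* at -0.18, -0.15, -0.16 and -0.15. *BAG6* was called lower there (-0.25, -0.23, -0.24 and -0.23). *SGTA* lay at -0.13, -0.11, -0.11 and -0.11. With no count filter *BAG5* was at -0.016. Leaving out libraries moved *BAG5* from -0.061 to 0.048, *BAG1* from -0.058 to 0.17 and *HSF1* from -0.15 to 0.017. None of these except *BAG6* was called under these settings.

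All genes called lower numbered 4856 with library totals and 4635 and 4614 with limma on filtered FPKM, against 3059. Genes called higher numbered 2356 with library totals, 32.7% of the calls in place of 52.4%, and 1465 with limma without a filter, against 3365. Calls made up 19.5% of tested genes with no count filter and 6.77% with limma without a filter, against 35.2%.

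Whether replicate numbers pair the samples was not settled. Over all tested genes, deviations of same-numbered libraries correlated at 0.021, -0.008 and 0.044, and not every library correlated best with its own number. Correlations near 0 over all genes cannot decide it, since a pairing could show in only some genes. With the replicate number as a block, 4 members were called higher and 1 lower, as without it, and 2692 genes were called higher and 2451 lower. The block ended the calls of *HSPB9* (adjusted p = 0.0934), *HSF4* (0.0805), *BCL2* (0.0566) and *SIAH1* (0.0506) among the list genes named, and of *SGTB* (0.0542). The settings for the pathway lists were added after seeing the data. The 3 libraries per group limit what small changes can be called.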
